A study of Mus musculus with 17 samples.

Results

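The Gimap genes encode GTPases of immunity-associated proteins, and 8 of them were measured here: Gimap1, Gimap3, Gimap4, Gimap5, Gimap6, Gimap7, Gimap8 and Gimap9. They were chosen by gene symbol, wherever a probe set with 1 gene symbol exists on the array, out of 22180 genes tested. The data are 17 Affymetrix Mouse Gene 2.0 ST arrays of RNA from 9 cell populations of mouse bone marrow and thymus. The labels describe the source of the cells as pools of chimeric mice: lethally irradiated (900 rads) B6 CD45.1 recipients that carried donor marrow from TCF-1 GFP reporter mice and were used 12 weeks later. All populations share that origin, and neither the age of the animals nor how many were pooled is given in the sources used here. The marrow populations were HSC (haematopoietic stem cells), LMPP (multipotent progenitors primed for lymphoid fates), flt3+ CMP and flt3- CMP (common myeloid progenitors with and without the flt3 receptor), CLP (common lymphoid progenitors), EILP (early innate lymphoid progenitors) and NK (natural killer cells). The thymic populations were ETP (early T-lineage progenitors) and the later double-negative stage DN3. EILP has 1 array and every other population 2. The study's design text names the other 8 populations as sorted but not NK, so how the NK cells were isolated is taken from the label alone. Nothing in the labels says that replicates came from separate pools, so the p-values rest on a spread between arrays that may be technical.

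Gimap proteins are GTP-binding proteins of the septin-like AIG1 family that sit on inner membranes of lymphocytes, such as those of the endoplasmic reticulum, Golgi, lysosome and mitochondrion. They are best known for keeping resting T, B and NK cells alive: mice and rats without a working Gimap5 lose peripheral T cells, and mice without Gimap1 lose mature T and B cells. In mice the family lies in a single cluster on chromosome 6. In the RefSeq gene table the members follow each other as Gimap8, Gimap9, Gimap4, Gimap6, Gimap7, Gimap1, Gimap5 and Gimap3, with Gimap6 and Gimap3 on the minus strand and the others on the plus strand. The pseudogene Gm44262 and the non-coding gene Gm46958 lie between Gimap8 and Gimap9 and were not tested.

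The promoters are shown because the members moved together in some populations and apart in others. RefSeq promoter windows (GRCm38.p6) were matched for all 8 members, with a second window for Gimap8 that made 9 in all. The 250 bases before each start site were searched on both strands for short motifs of blood-cell transcription factors. The 4 windows below belong to members with unlike profiles among the progenitors: Gimap5 and Gimap6, which were high in HSC and LMPP, Gimap4, which was second highest in CLP, and Gimap9, which was second highest in DN3. Each is printed 5′ to 3′ on the gene's own strand, in lower case, with the matches of any searched motif in capitals.
Gimap5 (chr6:48745947-48746196, plus strand): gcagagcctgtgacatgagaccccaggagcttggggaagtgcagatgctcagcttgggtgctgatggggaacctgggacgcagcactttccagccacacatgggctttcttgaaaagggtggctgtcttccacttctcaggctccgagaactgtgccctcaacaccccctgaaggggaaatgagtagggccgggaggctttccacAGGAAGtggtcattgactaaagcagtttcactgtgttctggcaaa
Gimap6 (chr6:48708245-48708494, minus strand): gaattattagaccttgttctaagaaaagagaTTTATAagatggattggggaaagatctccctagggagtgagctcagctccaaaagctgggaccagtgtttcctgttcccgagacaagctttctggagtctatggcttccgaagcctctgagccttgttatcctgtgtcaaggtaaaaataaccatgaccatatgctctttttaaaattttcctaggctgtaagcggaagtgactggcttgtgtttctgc
Gimap4 (chr6:48684328-48684577, plus strand): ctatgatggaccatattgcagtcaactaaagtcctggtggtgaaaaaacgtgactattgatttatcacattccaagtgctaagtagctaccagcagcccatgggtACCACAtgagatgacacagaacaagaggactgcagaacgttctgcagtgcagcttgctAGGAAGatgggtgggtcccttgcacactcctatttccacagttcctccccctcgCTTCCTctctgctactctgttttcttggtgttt
Gimap9 (chr6:48675885-48676134, plus strand): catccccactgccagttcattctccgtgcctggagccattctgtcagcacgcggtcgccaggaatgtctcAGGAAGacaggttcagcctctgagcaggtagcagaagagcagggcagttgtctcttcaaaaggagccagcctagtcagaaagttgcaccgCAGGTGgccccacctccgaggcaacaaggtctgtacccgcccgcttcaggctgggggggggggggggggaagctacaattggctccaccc
The Ets motif AGGAAG was found in 7 of the 9 member windows, against 29.5% of all 32851 promoter windows. Those 7 belong to 7 of the 8 members, all but Gimap6. The other Gimap8 window, chr6:48646984-48647233, held none of the searched motifs. The Runx motif TGTGGT was found in 3 of the 9 windows, those of Gimap1, Gimap4 and Gimap7, against 14% of all windows. Gimap9 held the E box CAGGTG, 90 bases before its start, a motif found in 17.2% of windows. Gimap6 held only TATAAA, on the opposite strand and 219 bases before its start, a motif found in 12.4% of windows. No member window held the Tcf and Lef motif CTTTGAA, found in 4.46% of windows, or the RBPJ motif TGGGAA, found in 21.6%. Nor did any hold the Gata motif, written AGATAA, found in 9.99%, the Klf motif GGGTGTG, found in 6.93%, or the Irf motif, found in 2.98%. The motifs do not overlap each other in these windows. These matches describe letters only, and a missing match says only that the letters are not in this window.

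Values are given on the log2 scale as the authors deposited them, so a difference of 1 is a 2-fold difference. The median over all genes and arrays was 4.54, and array medians lay between 4.45 and 4.62. Levels are compared for 1 gene across populations, never between genes. The NK label was borne out by its markers: the mean of Ncr1, Klrb1c, Gzmb, Eomes and Prf1 was 8.86 and 9.22 on the NK arrays and at most 4.57 on any other. Of the T cell genes, Cd4 read 4.07, Cd8a 3.97 and Cd8b1 3.93 in NK, all below the median of all values and called in no comparison. Cd3e read 4.5 in NK (10.11 in DN3) and was higher there than in CLP by 1.08 ± 0.25. Cd28 read 6.87 in NK, its highest population, and was higher than in CLP by 1.27 ± 0.31 and than in EILP by 2.09 ± 0.38. Cd27 read 7.58 in NK and was higher than in CLP by 1.36 ± 0.24 and than in EILP by 1.29 ± 0.30. Over the 9 genes of the mature T cell list the array mean was 4.93 to 4.97 in NK, 5.20 to 5.30 in ETP, 5.78 to 5.98 in DN3 and 4.46 to 4.75 elsewhere, with 4 of 9 above the median of all values in NK. The 4 measured mature B cell genes averaged at most 3.99 on every array, and the 5 endothelial genes were highest in HSC, at 5.06 and 5.07, against 4.13 and 4.21 in NK. Of the B cell genes, Ms4a1 was the 1 called between NK and CLP, higher in NK by 0.78 ± 0.19. It read 3.78 in NK, its highest population, below the median of all values. Granulocyte transcripts (5 genes such as S100a8 and Camp) averaged 10.31 to 11.96 on all marrow arrays and 4.13 to 5.56 on the thymic ones. Y-linked transcripts were high in CLP, EILP and DN3 only (Eif2s3y 8.65, 8.56 and 8.15, against at most 3.53 elsewhere), and every comparison of 1 of these 3 with any of the other 6 populations crosses that split, those of NK with CLP, EILP and DN3 among them. The sex-linked transcript Xist read 9.20 in CLP, 9.24 in EILP and 7.32 in DN3, against at least 11.3 elsewhere, and was lower in DN3 than in CLP by 1.89 ± 0.17. The part of these differences in the results was not tested.

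Every Gimap gene was highest in NK, Gimap1 on the brighter of its 2 probe sets only. A test over the 9 populations (limma's moderated F test with Benjamini-Hochberg adjustment over all genes) was passed by 8 of 8 members, against 22.7% of all genes. Against each other population in turn, Gimap3, Gimap4, Gimap5, Gimap7, Gimap8 and Gimap9 were higher in NK in all 8 comparisons, and Gimap1 and Gimap6 in 5 of 8. The 3 in which the latter pair missed the test (adjusted p under 0.05) were those with HSC, LMPP and ETP. In such bulk samples, more of a transcript per cell and a larger share of cells that hold it cannot be told apart.

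**Figure D1:**
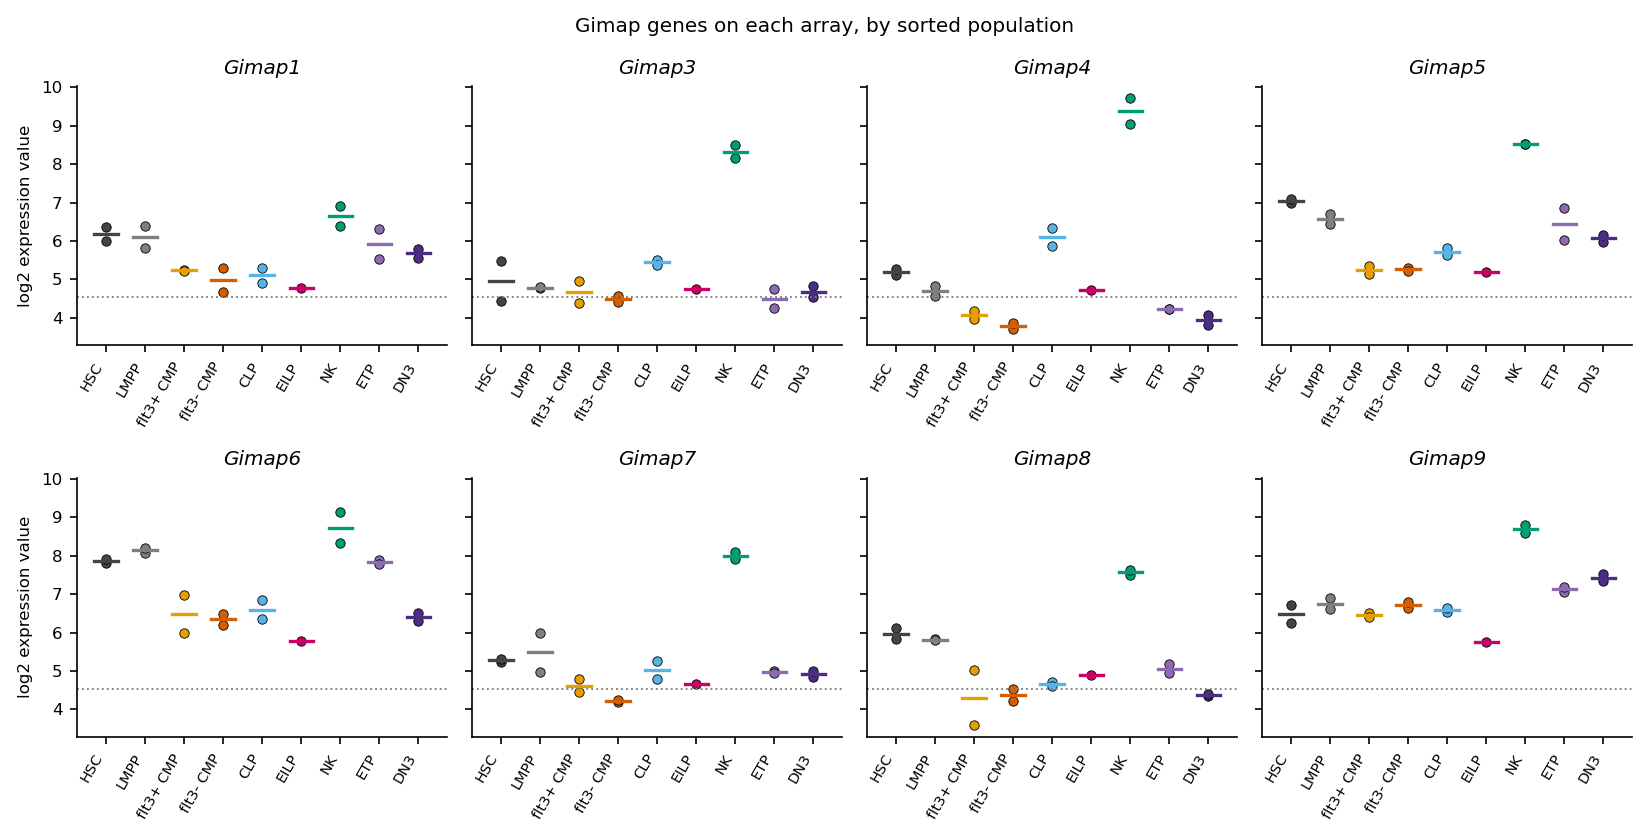
Log2 expression value (vertical axis) of the 8 Gimap genes on each array (points), by population (horizontal axis), with the population mean as a bar and the median of all values, 4.54, as a dotted line. NK is the highest population in every panel (for Gimap1 the brighter of 2 probe sets is shown), and the order of the progenitors differs between panels.

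Gimap5, whose loss shortens the life of lymphocytes, read 8.53 on both NK arrays. It read 7.0 and 7.09 in HSC, 6.45 and 6.71 in LMPP, 6.02 and 6.86 in ETP and 5.98 and 6.17 in DN3. It was lowest in CLP at 5.64 and 5.81, flt3+ CMP at 5.13 and 5.36, flt3- CMP at 5.31 and 5.22, and the EILP array at 5.20. The NK arrays thus lay above all others, HSC came second and EILP last, and no neighbours in the order below NK differed by the test. NK exceeded HSC by 1.48 ± 0.22 (SE of the fit, n = 2 against 2, adjusted p = 0.00077), CLP by 2.81 ± 0.22 (adjusted p = 2.92e-06) and EILP by 3.33 ± 0.27 (10.1-fold, adjusted p = 6.89e-06).

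Gimap1, needed for the survival of mature T and B cells, had the smallest contrast in NK. It read 6.40 and 6.91 in NK, 6.37 and 6.01 in HSC, 5.81 and 6.39 in LMPP, 6.32 and 5.52 in ETP and 5.80 and 5.57 in DN3. It read 5.25 and 5.23 in flt3+ CMP, 5.30 and 4.68 in flt3- CMP, 4.91 and 5.30 in CLP and 4.77 in EILP. The NK arrays lay just above the highest arrays of HSC, LMPP and ETP and clear of the CMP, CLP and EILP arrays, and no 2 neighbours in the whole order of 9 populations differed by the test. NK exceeded CLP by 1.55 ± 0.30 (2.93-fold, adjusted p = 0.00614) and EILP by 1.88 ± 0.36 (adjusted p = 0.0104), but HSC by only 0.46 ± 0.30 (adjusted p = 0.397). A second, dimmer Gimap1 probe set (3.77 to 5.15) did not follow the one used (Pearson r = -0.03 over 17 arrays). On it NK read 3.96 and 4.27, below HSC at 4.47 and 4.9 and the EILP array at 4.46, and overlapping CLP at 4.45 and 4.23. Which of the probe sets measures Gimap1 better was not tested. Gimap1 was also not called in NK minus CLP without the first CLP array (adjusted p = 0.0707) or the second NK array (0.0571), nor in NK minus EILP without the second NK array (0.0588). With the mean of both probe sets Gimap1 missed the test, at 0.66 for NK minus CLP (adjusted p = 0.0636) and 0.76 for NK minus EILP (adjusted p = 0.116).

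Gimap3 and Gimap4 stood out in NK and were low in nearly all other cells. Gimap3, a close relative of Gimap5 that binds Bcl2 family proteins, read 8.15 and 8.51 in NK and between 4.26 and 5.51 on the other 15 arrays. CLP came second at 5.51 and 5.38, overlapping the HSC arrays at 5.49 and 4.45. NK exceeded CLP by 2.88 ± 0.29 (7.38-fold, adjusted p = 3.55e-05) and EILP, at 4.76, by 3.57 ± 0.36 (adjusted p = 5.26e-05). Below NK no neighbours differed by the test, and without NK Gimap3 was the 1 member that did not pass the test over the remaining 8 populations (adjusted p = 0.273).

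Gimap4, known to speed the death of T cells after a death signal, read 9.06 and 9.73 in NK. It read 5.88 and 6.34 in CLP, 5.12 and 5.26 in HSC, 4.82 and 4.57 in LMPP and 4.73 in EILP. It read 3.96 and 4.18 in flt3+ CMP, 3.72 and 3.86 in flt3- CMP, 4.23 and 4.24 in ETP and 3.81 and 4.08 in DN3. The arrays fell into tiers that did not overlap, NK, then CLP, then the rest, and both of the steps between them passed the test. On this scale its differences were the largest of the family: NK exceeded CLP by 3.28 ± 0.22 (9.73-fold, adjusted p = 4.79e-07) and EILP by 4.66 ± 0.27 (25.3-fold, adjusted p = 2.2e-07), and ETP lay below NK by 5.16 ± 0.22 (adjusted p = 2.64e-09). The ETP readings were below the median of all values and no detection calls were used here, so whether they exceed background was not tested and no fold is given. CLP in turn exceeded HSC by 0.92 ± 0.22 (adjusted p = 0.0192).

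Gimap6, which acts in autophagy together with the Gabarap family protein Gabarapl2, was, like Gimap1, not called apart between NK and HSC, LMPP or ETP. It read 8.32 and 9.13 in NK, 8.07 and 8.21 in LMPP, 7.80 and 7.91 in HSC and 7.89 and 7.78 in ETP. It read 6.35 and 6.84 in CLP, 5.98 and 6.97 in flt3+ CMP, 6.48 and 6.20 in flt3- CMP, 6.50 and 6.29 in DN3 and 5.77 in EILP. The populations fell into a high set of NK, LMPP, HSC and ETP and a low set of the other 5, with no overlap, and the step between them, ETP minus CLP at 1.24 ± 0.30, was the only one in the order that passed the test (adjusted p = 0.015). NK exceeded CLP by 2.13 ± 0.30 (4.36-fold, adjusted p = 0.000743) but LMPP by only 0.58 ± 0.30 (adjusted p = 0.316).

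Gimap7, a GTPase that can stimulate GTP hydrolysis by relatives it pairs with, read 7.91 and 8.10 in NK and between 4.19 and 6.0 on the other arrays. LMPP came second at 4.98 and 6.0, its arrays the farthest apart of any population for this gene, and flt3- CMP last at 4.19 and 4.24. NK exceeded CLP by 2.98 ± 0.26 (7.87-fold, adjusted p = 8.62e-06) and EILP by 3.33 ± 0.32 (adjusted p = 3.36e-05). Gimap8, a member with several GTP-binding domains in 1 protein, read 7.51 and 7.64 in NK, 6.11 and 5.84 in HSC and 5.83 and 5.80 in LMPP. It read 5.18 and 4.94 in ETP and between 3.59 and 5.02 in the other 5 populations, with both ends of that range in flt3+ CMP. NK exceeded CLP by 2.92 ± 0.32 (7.58-fold, adjusted p = 6.45e-05). For Gimap7 and Gimap8 only the step from NK to the second population passed the test.

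Gimap9 was the member with a thymic second place. It read 8.81 and 8.58 in NK, 7.33 and 7.52 in DN3 and 7.06 and 7.19 in ETP. HSC, LMPP, both CMP and CLP lay together between 6.25 and 6.90, and the EILP array was lowest at 5.76. NK exceeded DN3 by 1.27 ± 0.18 (adjusted p = 0.000307), CLP by 2.10 ± 0.18 (4.28-fold, adjusted p = 7.14e-06) and EILP by 2.94 ± 0.22 (adjusted p = 3.3e-06). DN3 in turn was higher than HSC, LMPP, both CMP, CLP and EILP, by 0.67 (LMPP) to 1.67 (EILP), of which those with CLP and EILP lie within 1 side of the Y-linked split. On that side Xist still differed between DN3 and CLP. All these comparisons of DN3 also cross from thymus to marrow, where granulocyte transcripts differed. Camp stood at -8.45 ± 0.24 in DN3 minus CLP, and the part of that difference was not tested.

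Counted over the family, 8 of 8 members were higher in NK than in CLP, where 3.22% of all genes were, and 8 of 8 higher than in EILP, where 1.91% were. None was lower, where 3.17% and 1.57% of all genes were. Against flt3+ CMP, flt3- CMP and DN3 the count was again 8 of 8, with 4.94%, 4.93% and 6.51% of all genes. Against HSC and LMPP it was 6 of 8, with 4.27% and 3.54%. For DN3 the count includes Gimap1, on the brighter probe set, at 0.97 ± 0.30 (adjusted p = 0.0479). The counts against DN3, both CMP, HSC and LMPP were not rerun under the alternatives given below. In ETP minus NK, 6 of 8 were lower, where 6.63% of all genes were, and none higher, where 4.60% were. The median difference of the members was 2.84 for NK minus CLP and 3.14 for NK minus EILP, where the median of all genes was 0.09 and 0.05. These comparisons share the same 2 NK arrays, so they are not independent of each other. Comparisons of NK with HSC, LMPP, both CMP and ETP lie within 1 side of the Y-linked split. The members not called among these were Gimap1 and Gimap6 against HSC, LMPP and ETP, at 0.46 to 0.89. The comparison with ETP also crosses from marrow to thymus, where granulocyte transcripts differed. Camp stood at -7.15 ± 0.24 in ETP minus NK. The part of that difference in the results was not tested.

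Below NK the family came apart. Over the 8 remaining populations 7 of 8 members still varied (19.6% of all genes did), Gimap7 only just (adjusted p = 0.0472). Of all steps between neighbours in the members' orders, 8 passed the test, 6 of them the step from NK to the second population and the others the CLP to HSC step of Gimap4 and the ETP to CLP step of Gimap6, both of which cross the Y-linked split. Over all 17 arrays the median Pearson correlation of the 28 member pairs was 0.79, and it was 0.33 over the 15 arrays without NK. Points of 1 population share their sort, and the correlations are given as descriptions. Without NK, Gimap1, Gimap5, Gimap6, Gimap7 and Gimap8 followed each other, with r from 0.66 to 0.83 over their 10 pairs. Gimap3 and Gimap4 followed each other with r = 0.72, and across these sets r was 0.02 to 0.46. Gimap9 followed neither, with r from -0.35 to 0.33. Along the chromosome, Gimap6, Gimap7, Gimap1 and Gimap5 of the first set follow each other, and Gimap8 of that set lies apart at one end of the cluster. Gimap4 and Gimap3 lie on either side of that run.

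**Figure D2:**
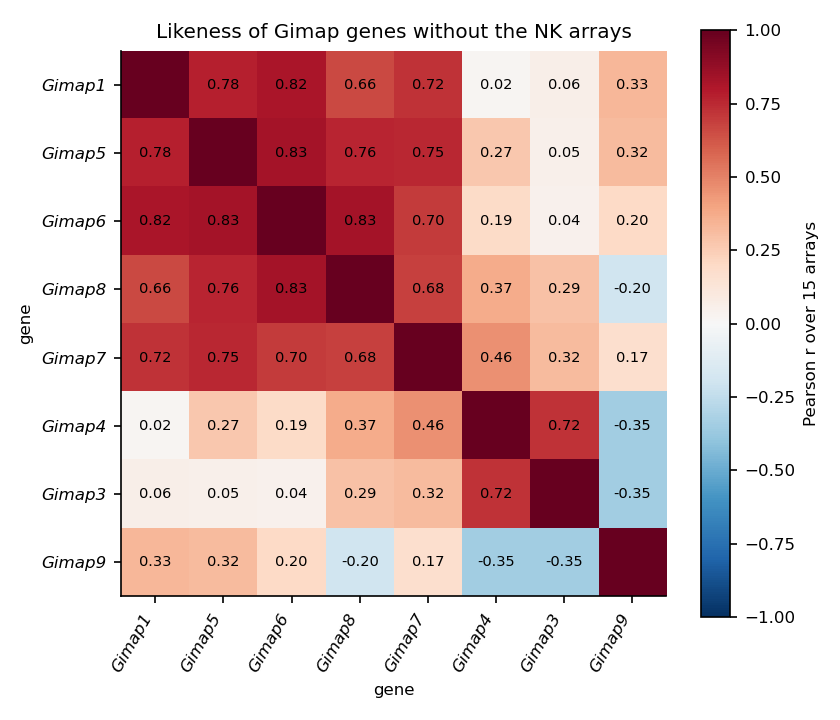
Pearson correlation (colour and number) between each pair of Gimap genes over the 15 arrays other than NK, both axes listing the genes. Gimap1, Gimap5, Gimap6, Gimap8 and Gimap7 form a block of 0.66 and above, Gimap4 and Gimap3 a pair at 0.72, and Gimap9 stands by itself.

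At the step from HSC to LMPP no member was called in either direction, where 0.275% of all genes were higher and 0.325% lower, and 1 member, Gimap4, had an unadjusted p under 0.05. Its difference was -0.50 ± 0.22, and the median of the members was -0.13. The step to flt3+ CMP was downward for all 8 members in sign. Gimap5 fell by 1.33 ± 0.22 (adjusted p = 0.0189) and Gimap6 fell by 1.67 ± 0.30 (adjusted p = 0.031) from LMPP to flt3+ CMP, 2 of 8 members where 0.298% of all genes were lower, and none rose, where 0.144% were higher. The Gimap5 call was lost without any 1 of the LMPP or flt3+ CMP arrays (adjusted p 0.0775 to 0.185), and that of Gimap6 without either LMPP array or the first flt3+ CMP array (0.157 to 0.251). Gimap8 was at -1.51 ± 0.32 and missed the test (adjusted p = 0.0668), with flt3+ CMP arrays at 3.59 and 5.02. Between flt3+ and flt3- CMP no member was called, where 0.0451% of genes were higher and 0.0631% lower, and none had an unadjusted p under 0.05. The largest of those differences was 0.40 for Gimap7, with a 95% interval from -0.17 to 0.96.

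From LMPP to CLP the family moved both ways. Gimap4 rose by 1.42 ± 0.22 (2.67-fold, adjusted p = 0.00159), 1 of 8 members where 3.75% of all genes were higher. Gimap6 fell by 1.55 ± 0.30 (2.92-fold, adjusted p = 0.00797), Gimap8 fell by 1.16 ± 0.32 (adjusted p = 0.0484) and Gimap5 fell by 0.86 ± 0.22 (adjusted p = 0.0365), 3 of 8 where 2.20% of genes were lower. Gimap1 was at -0.99 ± 0.30 (adjusted p = 0.0715) and Gimap3 at 0.66 ± 0.29 (adjusted p = 0.271). The calls of Gimap5 and Gimap8 were lost whichever LMPP or CLP array was left out, with adjusted p of 0.0863 or more for Gimap5 and 0.155 or more for Gimap8. Gimap6 was no longer called without the second LMPP array (-1.48, adjusted p = 0.0616) or without the first CLP array (-1.30, adjusted p = 0.0843).

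EILP, the progenitor of innate lymphoid cells that the study's title names, had the lowest mean of the 9 populations for Gimap1, Gimap5, Gimap6 and Gimap9. For each of these genes flt3+ or flt3- CMP came next, higher by 0.05 (Gimap5) to 0.71 (Gimap9), and was not called apart from EILP. Against LMPP, Gimap6 was lower by 2.38 ± 0.37 (5.19-fold, adjusted p = 0.00255), Gimap5 by 1.38 ± 0.27 (adjusted p = 0.0112) and Gimap9 by 1.00 ± 0.22 (adjusted p = 0.0232), 3 of 8 members where 1.79% of genes were lower. Gimap3 and Gimap4 differed from LMPP by -0.03 (95% interval -0.81 to 0.75) and 0.04 (-0.54 to 0.62). The EILP values rest on 1 array, which the fit takes to vary as the others do, and without the second LMPP array only Gimap6 was still called. Against CLP, Gimap4 was lower by 1.38 ± 0.27 with an adjusted p of 0.0499, the 1 member of 8 where 0.325% of genes were lower, and none was higher, where 0.0406% were. That call was lost without either CLP array, at -1.60 (adjusted p = 0.0555) and -1.15 (adjusted p = 0.257), and in a fit on these 2 populations alone (adjusted p = 0.323). The other members lay between -0.84 (Gimap9) and 0.25 (Gimap8) of CLP. The NK marker list averaged 4.57 in EILP, and every member was called higher in NK than in EILP by at least 1.88.

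**Figure D3:**
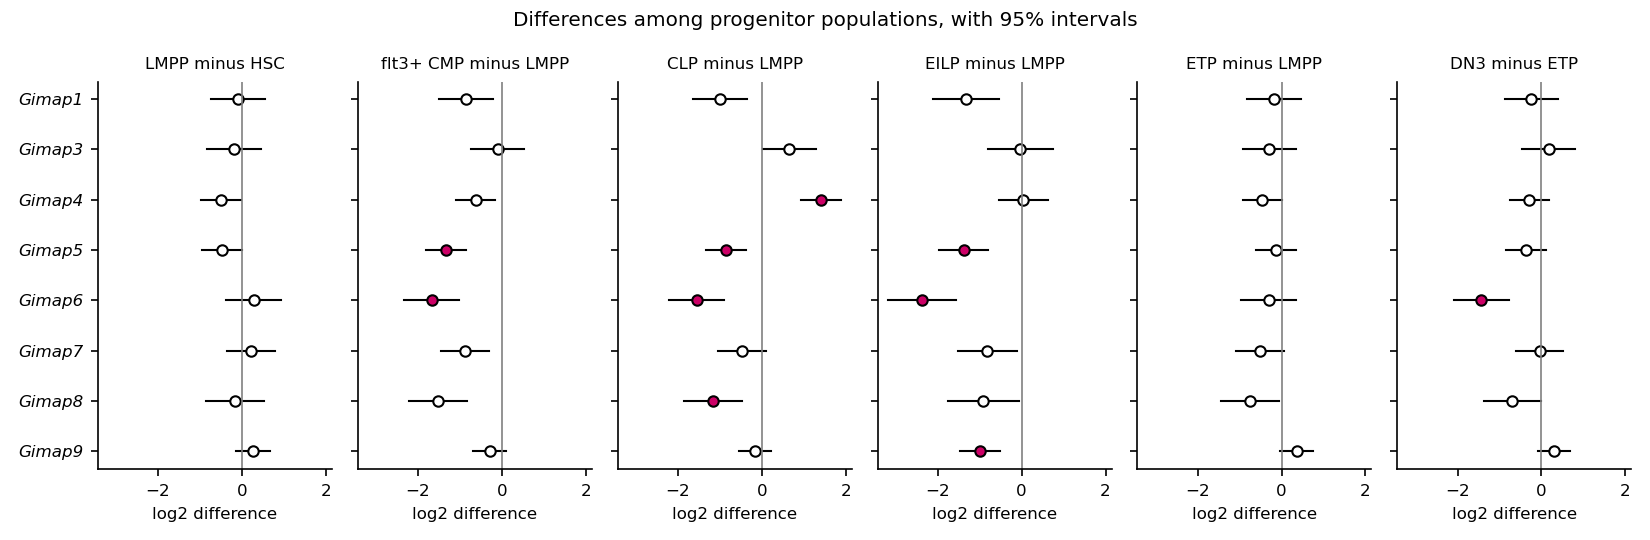
Log2 difference with its 95% interval (horizontal axis) of each Gimap gene (vertical axis) in 6 comparisons among progenitors, with called differences filled in. Gimap4 is the 1 filled point to the right of 0, in CLP minus LMPP, and Gimap6 is filled and to the left of 0 in 4 of the 6 panels.

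In the thymus, no member was called between ETP and LMPP, where 1.02% of genes were higher and 2.40% lower. The differences ran from -0.76 (Gimap8, unadjusted p = 0.0331, the 1 member of 8 with an unadjusted p under 0.05) to 0.37 (Gimap9). From ETP to DN3, Gimap6 fell by 1.44 ± 0.30 (2.71-fold, adjusted p = 0.00861), the 1 member of 8 where 3.53% of genes were lower. It was not called without the second DN3 array (-1.33, adjusted p = 0.074). Between the lymphoid progenitor of marrow and DN3, Gimap4 was lower in DN3 by 2.16 ± 0.22 (adjusted p = 1.14e-05) where 5.92% of genes were lower. Its DN3 readings, 3.81 and 4.08, were below the median of all values, so no fold is given. Gimap9 was higher in DN3 by 0.83 ± 0.18 (adjusted p = 0.00818) where 4.69% were higher. Gimap9 was not called without the first CLP array (adjusted p = 0.0695) or the second DN3 array (adjusted p = 0.0774).

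The genes around the cluster were compared in the same fit. Of the 20 protein-coding genes nearest to it, 10 on each side, 18 were tested. None of them was called higher by limma in NK than in CLP, where 3.22% of all genes were, or than in EILP, where 1.91% were. On each side 1 had an unadjusted p under 0.05 in each of these comparisons, in either direction. Gm5111 was the 1 of the 18 called lower in NK than in CLP, by 2.50 ± 0.26 (adjusted p = 4.13e-05), where 3.17% of all genes were lower. Counts of 0 and 1 among 18 genes lie near those shares and are not read as results about the neighbours. The flanking genes had a median difference of 0.17 for NK minus CLP and 0.10 for NK minus EILP, with extremes of -2.50 and 0.70 in the first. Among them, Sspo, Atp6v0e2, Aoc1, Doxl1, Doxl2, Svs1 and Gpnmb had every population mean below the median of all values, 4.54. Whether these exceed background was not tested. The genes next to Gimap8 and Gimap3, Zfp775 and Tmem176b, stood at 0.26 ± 0.26 and -0.23 ± 0.19 for NK minus CLP. In EILP minus LMPP, 3 of the 18 flanking genes were lower, Gm5111 at -3.78, Tmem176b at -1.33 and Igf2bp3 at -0.98, beside the 3 members that were. Of all genes 1.79% were lower there.

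**Figure D4:**
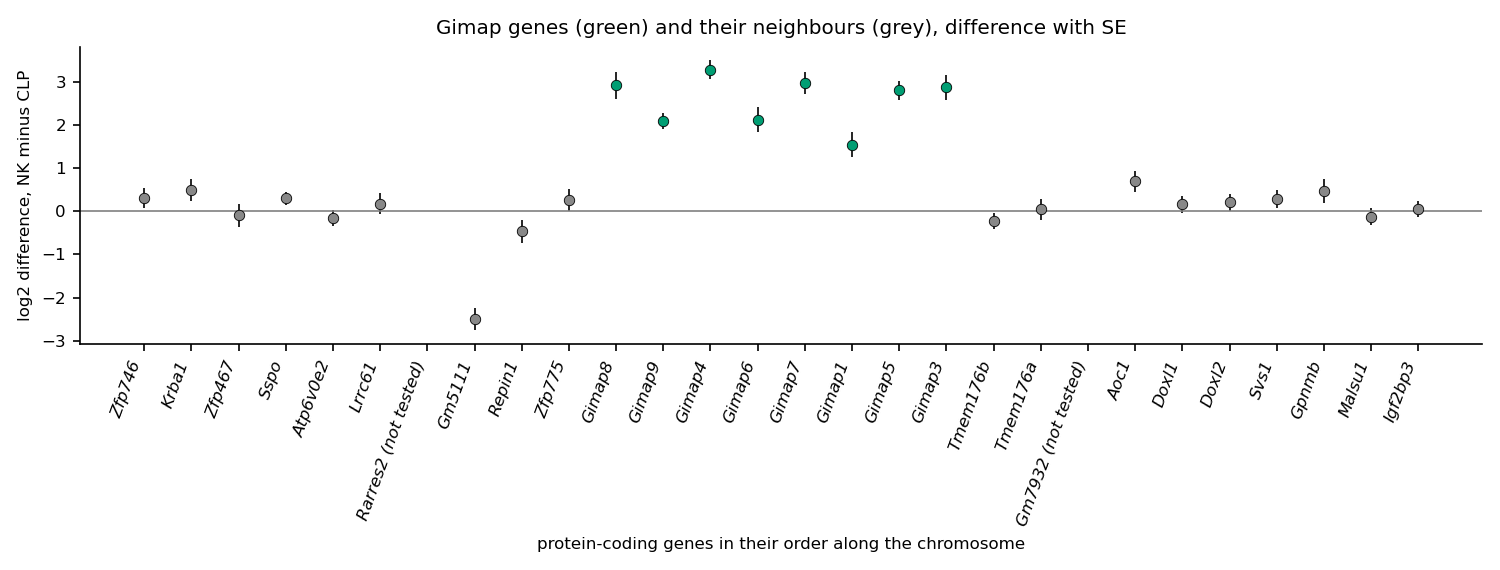
Log2 difference NK minus CLP with its SE (vertical axis) for the Gimap genes (green) and the 10 nearest protein-coding genes on each side (grey), in chromosomal order (horizontal axis), 2 of which were not tested. The members lie between 1.55 and 3.28 and the flanking genes between -2.50 and 0.70.

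Other GTPases of immunity were set beside the family. Of 5 tested among 8 listed p47 immunity-related GTPases, which guard against intracellular microbes, 2 were higher in NK than in CLP, Irgm2 by 1.04 ± 0.27 and Igtp by 0.86 ± 0.21, with a median over the 5 of 0.30, where 3.22% of all genes were higher. Of 9 measured guanylate-binding proteins, the larger interferon-induced GTPases, 4 were higher in NK than in CLP: Gbp4 by 3.82 ± 0.41, Gbp9 by 2.31 ± 0.32, Gbp8 by 1.69 ± 0.46 and Gbp5 by 1.52 ± 0.26, again against 3.22% of all genes. In DN3 minus CLP 5 of these 9 were higher, Gbp4 by 4.79 ± 0.41 and Gbp8 by 3.52 ± 0.46 among them, where 4.69% of all genes were higher and Gimap9 was the 1 Gimap gene that was. In CLP and EILP minus LMPP, the p47 GTPase Iigp1 was lower by 2.26 ± 0.32 and 2.91 ± 0.39.

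Genes of the processes in which Gimap proteins act were counted in the same way. The shares of all genes to read these counts against are 3.22% higher and 3.17% lower in NK minus CLP, and 1.91% higher and 1.57% lower in NK minus EILP. Counts of 0 and 1 are not read as results about a list. Of 10 measured Bcl2 family genes, Bcl2 itself, which blocks mitochondrial cell death, was the 1 higher in NK than in CLP, by 1.32 ± 0.21 (adjusted p = 0.00198), and Bcl2l11, which promotes it, the 1 higher than in EILP, by 1.21 ± 0.23 (adjusted p = 0.00834). Of 9 autophagy genes none was higher and Atg7 was lower in NK than in CLP, by 1.01 ± 0.24, and in NK minus EILP none was called and 1 had an unadjusted p under 0.05. Of 13 genes of quiescence and recirculation, S1pr1, the receptor that guides lymphocytes out of tissues, was higher in NK than in CLP by 2.16 ± 0.21 and Il7r, the interleukin-7 receptor, lower by 1.55 ± 0.28. Against EILP 3 of the 13 were higher in NK, Il7r by 2.10 ± 0.34 (adjusted p = 0.00277), S1pr1 by 2.17 ± 0.26 and Foxo1, a factor of quiescence, by 1.57 ± 0.17. Of 13 transcription factors, 5 were higher in NK than in CLP, the NK factors Eomes by 5.42 ± 0.22 and Tbx21 by 2.66 ± 0.16, Tox by 2.42 ± 0.25, Runx3 by 1.13 ± 0.26 and Ets1 by 0.85 ± 0.19. Against EILP 4 were higher, Eomes by 5.07 ± 0.27, Lef1 by 2.66 ± 0.28, Tbx21 by 2.23 ± 0.19 and Ets1 by 1.56 ± 0.24. Ets1, Runx3 and Lef1 belong to families whose motifs were searched in the promoters above, where no member window held the Tcf and Lef motif. NK was not the highest population for any of these factors. Ets1 read 7.94 in NK and 8.19 in DN3, and Runx3 read 6.74 in NK and 6.82 in ETP. Lef1 read 7.1 in NK and 8.8 in DN3. Binding was not measured.

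The genes whose profile over the 9 population means was most like the mean of the Gimap genes were ranked by Pearson correlation among 1117 genes with a wide enough range. First came Car5b (r = 0.974), a mitochondrial carbonic anhydrase, Serpinb9 (0.966), an inhibitor of granzyme B, Stk39 (0.953), Serpinb9b (0.941), Ccl4 (0.94), a chemokine, and Itga2 (0.939), the integrin known as CD49b that marks NK cells, followed by Epsti1, Plod2, Ddx43 and Sidt1 (0.928). All were highest in NK, as with Itga2 at 9.08 against at most 4.67 elsewhere. When NK was left out, none of these 10 was among the 10 most similar genes, and Il18 came first (r = 0.859 over 8 means). By single members, Cd2, an adhesion receptor, was most like Gimap3 (r = 0.985), Crybg1 most like Gimap4 (0.969) and Lfng, a modifier of Notch receptors, most like Gimap9 (0.937). Cobll1 was most like Gimap6 (0.958), being 6.14 in NK, 6.07 in LMPP and 3.67 in EILP. These correlations rest on 9 points, 1 of them NK.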

How the data were processed

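RNA of 9 populations was hybridised to 17 Affymetrix Mouse Gene 2.0 ST arrays. The authors deposited log2 expression values for 41345 probe sets, made with Affymetrix Expression Console per the submitters' processing notes; version and algorithm: not given in the sources used here. Per the labels, RNA was extracted with Trizol and amplified with a NuGEN Pico V2 kit. Arrays give no read depth, and their number limits the precision.

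Probe sets were named from the platform annotation: 23521 have 1 gene symbol, 1814 several and 16010 none, and those with several or none were left out. The probe set with the highest mean stood for each of 1082 genes with several, which left 22180 genes with no filter on low values. A mean per population was fitted with limma 3.58.1 in R 4.3.3 (lmFit, eBayes; 8 residual and 5.33 prior degrees of freedom), two-sided. Calls required an adjusted p under 0.05 (Benjamini-Hochberg, all genes of a comparison) in 12 comparisons, and in all 36 pairs of populations for the orders. The fit was tested on simulated data. The gene lists and members were chosen with earlier results of these data known. Genes named besides the members were list genes called in a compared pair, mostly with a difference of at least 2-fold, and the 10 most similar profiles (1 to 3 per member) among genes whose means span at least 2 log2 units. Igtp, Ets1, the flanking genes, Il18 and the marker genes named (Cd4, Cd8a and Cd8b1 are called in no comparison) fall outside that rule and were chosen after their values were seen. Promoter windows come from RefSeq (GRCm38.p6).

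Replicate numbers did not pair the samples: over 28 pairs of populations, the deviations of same-numbered arrays correlated at -0.07 to 0.09. No 2 arrays held identical values, and replicates correlated at 0.9734 to 0.9901. Alternatives tried were other scalings, filters, choices of probe set, variance models, a replicate block, fits on the compared populations alone and leaving out each replicate.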

Additional observations from a re-analysis of the deposited data

How the results depend on the processing

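Of 96 single differences in the 12 comparisons, 35 were called, and none of these changed sign under any alternative. Of those 35, 26 stayed called under every other setting run and 23 when any 1 replicate was left out. Of the 61 uncalled differences, 4 results in other settings and 24 with a replicate left out had the opposite sign. With all 41345 probe sets tested, 2 members were called in CLP minus LMPP, and none in EILP minus CLP or flt3+ CMP minus LMPP. EILP minus CLP had 0 calls also with a trended, robust variance, and EILP minus CLP and flt3+ CMP minus LMPP had 0 in fits on the compared populations alone, where fewer arrays estimate the spread; there Gimap1 (adjusted p = 0.111) and Gimap6 (0.0617) in NK minus EILP and Gimap9 (0.0812) in EILP minus LMPP also lost their calls. The likeness of the members fell from a median of 0.79 to 0.33 without the NK arrays and to 0.42 over 8 population means without NK, and 0 of the 10 most similar genes were shared; these alternatives were chosen after seeing the data.

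Leaving out 1 replicate gave 1 to 3 calls in CLP minus LMPP, 0 in EILP minus CLP, 1 to 4 in EILP minus LMPP, 7 to 8 in NK minus CLP and in NK minus EILP, 0 to 1 in ETP minus LMPP (1 without LMPP replicate 1), 6 to 7 in ETP minus NK, 0 to 2 in DN3 minus ETP (2 without ETP replicate 1), 1 to 2 in DN3 minus CLP, 0 to 2 in flt3+ CMP minus LMPP and 6 to 10 called steps between neighbours. Where this left 1 array in a population, it was assumed to vary like the others. With the replicate number as a block, which leaves out EILP, Gimap8 in CLP minus LMPP was at -1.16 (adjusted p = 0.059) and lost its call; the block changed no other call.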
